A study of Mus musculus with 3 samples.

Results

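The Pax-, Six- and Eya-family factors are transcriptional regulators that act early in the formation of skeletal muscle. Of their genes 9, namely Pax7, Pax3, Six2, Six4, Six5, Eya1, Eya2, Eya3 and Eya4, were taken by gene symbol, by a rule that uses no level, from 35562 genes in RNA-seq libraries of cultured mouse myoblasts. Myoblasts are the dividing progeny of satellite cells, which are the resident stem cells of muscle fibres. The 3 libraries came from 3 myoblast lines, numbered 66, 67 and 72, with the genotype Dmdmdx; Pax7-nGFP. The Dmdmdx allele disrupts dystrophin, and all 3 lines carried a CRISPR/Cas9 edit made to correct it. The edit was made in induced pluripotent stem cells reprogrammed from male embryonic fibroblasts that were heterozygous for the Pax7-nGFP reporter, a nuclear GFP driven by Pax7 regulatory sequence. The edited cells, of which 1 clone was checked by sequencing, were injected into blastocysts that carried Pax7-Cre/ERT2 and Rosa26-lsl-DTA, whose own satellite cells can be ablated with tamoxifen, and myoblast lines were grown from satellite cells of the chimeras. Ages of the chimeras and the tamoxifen status of each line are not in the sample labels. The lines formed 1 condition with n = 3, the line was the replicate, and no test between conditions was run. Myoblasts of Pax7-nGFP mice and embryonic fibroblasts were not analysed here.

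Pax7 and Pax3 are close relatives that bind DNA through a paired domain and a homeodomain. Pax7 marks satellite cells and is needed to maintain them, whereas Pax3 acts mainly in the muscle progenitors of the embryo and in the satellite cells of some muscles. Six-family proteins are homeodomain factors that bind a DNA element called MEF3, found in the promoter of Myog among others. Eya proteins do not bind DNA. They join Six-family proteins as coactivators and carry a phosphatase activity.

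The sequences below show where the listed transcripts of Pax7 and Pax3 part in their coding region, since the levels of these transcripts are reported next. Transcript models were those of GENCODE M21 on GRCm38, and each sequence reads 5′ to 3′. At the start of exon 4, Pax7-202 carries 6 extra bases, or 2 codons, shown in capitals. The other coding exons of both Pax7 transcripts are the same. The same junction of the 3 Pax3 transcripts lacks these bases.
Pax7-201, exon 3 to exon 4: cggtgccctcagtgagttcgatta
Pax7-202, exon 3 to exon 4: cggtgccctcagGTTTAGtgagttcgatta
Pax3-201, Pax3-202 and Pax3-203, exon 3 to exon 4: ctgtgccctcagtgagttctatca
Pax3-201 splices from exon 8 to a separate exon 9, whereas Pax3-202 reads on past the end of exon 8. In the pair below, capitals mark the coding bases after exon 8, which number 32 in Pax3-201 and 17 in Pax3-202, followed by the stop codon.
Pax3-201, after exon 8: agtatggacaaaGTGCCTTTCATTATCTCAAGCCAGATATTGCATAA
Pax3-202, after exon 8: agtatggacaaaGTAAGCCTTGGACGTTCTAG

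Levels were compared in TPM, the estimated count of a transcript divided by its effective length and scaled to 1000000 per library, and were summed over the transcripts of a gene. Total estimated counts were between 66972426 and 73274315 per library. All 8 myoblast markers of the list used here, Pax7 and Itga7 among them, had at least 10 TPM in every line. In the paper, satellite cells were sorted by FACS on the Pax7-nGFP reporter or on surface markers that include the Itga7 product. Which sort was used for each line is not in the sample labels. High levels of Pax7 and Itga7 are thus not independent of how the cells were chosen. Of 6 fibroblast and fibro-adipogenic markers none reached 10 TPM in every line, and their summed level lay between 3.88 and 6.29 TPM, with Lum and Dpt at 0 counts in all lines. Summed levels were between 3.68 and 4.04 TPM for 8 Schwann cell, neural crest and melanocyte markers, at most 4.31 TPM for 3 immune markers and at most 0.883 TPM for 3 endothelial markers. The summed level of 6 genes of differentiated muscle was 1003 TPM in line 66, 1484 TPM in line 67 and 1755 TPM in line 72.

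In every line, each grown from sorted satellite cells, Pax7 had the highest level of the 9 genes. Its mean of 144 ± 9.02 TPM (SD, n = 3) was followed by Eya3, Eya4, Six4, Eya1, Six2, Eya2, Pax3 and Six5. In TPM, Pax7, Eya3, Eya4 and Six4 were each apart from the next gene, in that the lowest line of one lay above the highest line of the other. In CPM, estimated counts scaled to 1000000 per library but not per length, Eya3 (71.4, 73.4 and 74.2 in lines 66, 67 and 72) lay below Six4 (85.7, 93.7 and 93.8) in every line, and Eya4 (62.5, 103 and 91.6) lay below Six4 in lines 66 and 72. On coding transcripts alone, Eya3 lay below Eya4 in every line, as given with these genes. From Eya1 downward the ranges of neighbours overlapped over the lines. Within lines, Six2 was still above Eya2 in all 3, whereas Eya1 was above Six2 and Pax3 above Six5 in 2 of 3, and Eya2 above Pax3 in 1 of 3. With 3 lines a two-sided exact sign-flip p cannot fall below 0.25, and none was computed.

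**Figure D1:**
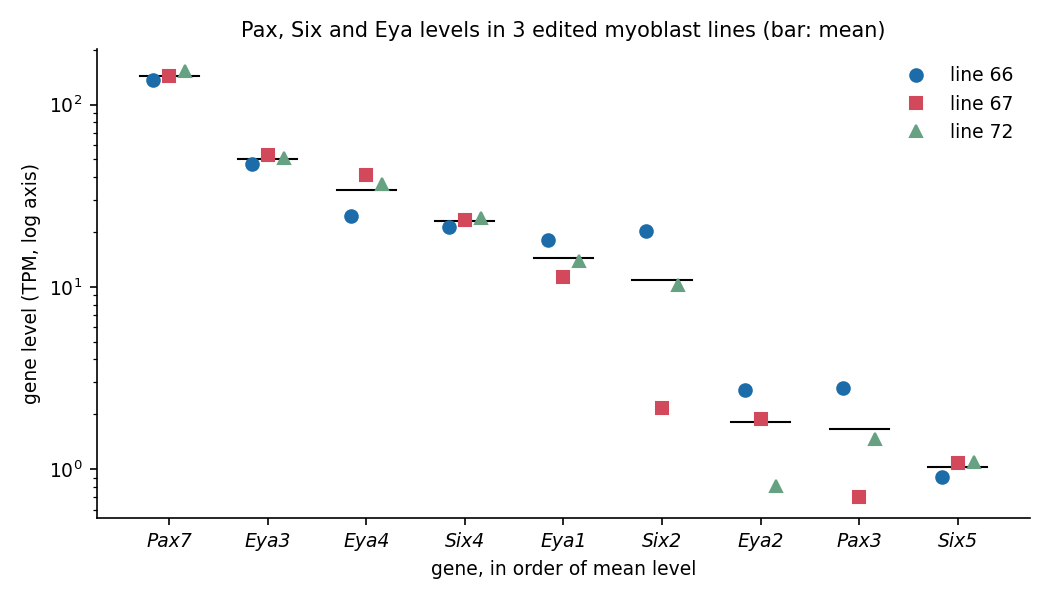
Level of each gene in lines 66, 67 and 72 (TPM, log axis), with genes in order of their mean (black bar). Pax7 sits highest in all lines, the 3 points of Six4, Eya3 and Pax7 lie close together, and those of Six2 are spread from 2.15 to 20.3 TPM.

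The genes differed in how far they varied between lines. The highest line over the lowest line was 1.13-fold for Pax7, 1.12-fold for Six4, 1.12-fold for Eya3 and 1.20-fold for Six5, folds above those of 27.2%, 23.5%, 24.1% and 45.1% of the 12528 genes whose mean reached 1 TPM. It was 1.60-fold for Eya1 and 1.67-fold for Eya4. Six2, Pax3 and Eya2 exceeded 2-fold, with 9.42-fold, 3.93-fold and 3.36-fold. Each of these calls rested on 1 line. Without line 67, Six2 and Pax3 differed by 0.98 and 0.92 on the log2 scale, under 2-fold, and without line 72 Eya2 differed by 0.52. Of these 12528 genes, 7.19% exceeded 2-fold in this way. The fold of Six2 ranked above 99.6% of these genes, that of Pax3 above 98.3% and that of Eya2 above 97.8%. Low genes varied more, and 28.1% of the 1052 genes averaging 1 to 2 TPM exceeded 2-fold, a range that holds Pax3, Eya2 and Six5. Among 8428 genes averaging 10 TPM or more, the share was 2.47%. Six2, with 20.3, 2.15 and 10.2 TPM in lines 66, 67 and 72, passes this filter only through its high line 66. The share of 2.47% is thus not a background independent of the Six2 fold. With 1 library per line these folds carry no p-value. In such bulk libraries a lower level per cell and fewer expressing cells cannot be told apart.

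**Figure D2:**
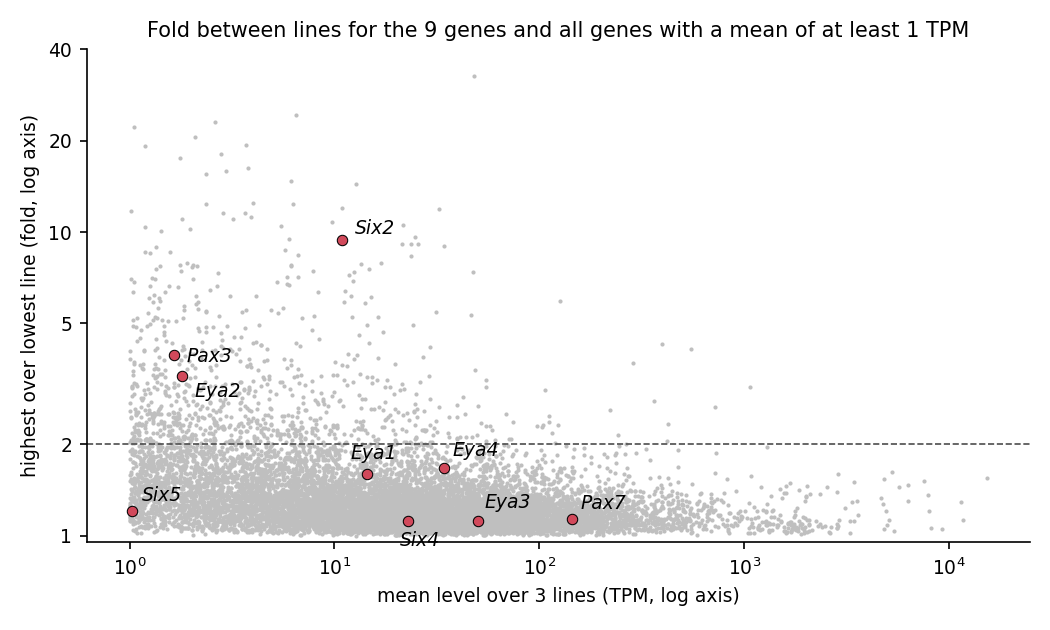
Highest over lowest line (fold, log axis) against mean level (TPM, log axis) for genes averaging 1 TPM or more (grey) and the 9 genes (red). The dashed line marks 2-fold, Six2, Pax3 and Eya2 lie above it, and 16 genes with a fold above 40 or at 0 in a line are not drawn.

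The spread between lines was also described by the biological coefficient of variation, a relative variation beyond counting error that edgeR fits for each gene and draws towards genes of similar level. It was 0.679 for Six2, 0.499 for Pax3, 0.386 for Eya2 and 0.229 for Six5. The value common to the 12528 genes averaging 1 TPM or more was 0.198. For Six5 the fitted value exceeded the CV of its TPM values themselves, which was 9.92% beside 7.50% from counting error alone, and it is no sign of a difference between lines. Eya1 and Eya4 lay at that level with 0.198 and 0.192. The values of Pax7, Six4 and Eya3 were 0.0929, 0.0966 and 0.0960, and those of 5.13%, 9.14% and 8.57% of genes were lower. Counting error alone gave a CV between 0.493% for Pax7 and 7.68% for Eya2.

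Pax7 (chr4:139737062-139833528, minus strand) had 136 TPM in line 66, 143 TPM in line 67 and 154 TPM in line 72, or 40635, 39084 and 43853 estimated counts. Its mean ranked above 95.7% of 25510 genes with any count. All 31-base words of its transcripts occur in no other listed gene, so that its counts were not shared with Pax3. Transcripts of the GFP reporter are not listed in the files, and its part in the Pax7 counts was not tested.

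Both Pax7 transcripts were read in every line. Pax7-201 had 115, 119 and 130 TPM in lines 66, 67 and 72, and Pax7-202, which has the 6 extra bases GTTTAG, had 21.2, 24.2 and 24.1 TPM. The TPM share of Pax7-202 was 16.1% ± 0.774 (SD, n = 3), and its ranking below Pax7-201 held in all 3 lines. Pax7-202, which GENCODE tags as not supported by transcripts of the organism, is the shorter model, with 1725 against 5854 bases, and of its 1695 words of 31 bases only 34 are absent from Pax7-201. Its share of the estimated counts was accordingly lower, at 5.06% ± 0.271 (SD, n = 3).

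Pax3 (chr1:78101267-78197134, minus strand) was far lower. It had 2.78 TPM in line 66, 0.708 TPM in line 67 and 1.47 TPM in line 72. Its estimated counts were 407 (95% Poisson interval 368 to 449), 94.2 (76.0 to 115) and 200.4 (173 to 229.7), and these intervals, which cover counting error only, did not overlap. Line 66 was thus high and line 67 low for Pax3, while Pax7 differed by 1.13-fold in the same libraries. Line 66 exceeded line 67 by 1.97 on the log2 scale, and 2.36% of genes exceeded 2-fold in that direction. Line 72 was also over 2-fold above line 67, as were 2.17% of genes. Pax3 is also used by neural crest and melanocyte cells, and the myoblasts were purified by FACS before sequencing. Sox10, S100b and Foxd3, which define these cells, had at most 2 counts in each library, and the summed level of that marker list was lowest in line 66, at 3.68 TPM. The part of such cells in the Pax3 values was not tested.

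Pax7 exceeded Pax3 by 48.9-fold in line 66, 202-fold in line 67 and 104-fold in line 72, with a mean log2 ratio of 6.66 ± 1.02 (SD, n = 3). Of the summed level of both genes, Pax7 made up 98.9% ± 0.775 (SD, n = 3). Most of the spread in this ratio lay in Pax3, since Pax7 itself differed by 1.13-fold.

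The transcripts of Pax3 fell together in line 67. Pax3-201 had 1.62, 0.444 and 0.934 TPM in lines 66, 67 and 72, and Pax3-202 had 0.864, 0.203 and 0.404 TPM. The third, Pax3-203, is a processed transcript of 5 exons without a coding region, and had 0.296, 0.0613 and 0.134 TPM. Pax3-201, with its own exon 9, carried 61.5% ± 2.82 of the TPM, Pax3-202 29.1% ± 1.86 and Pax3-203 9.47% ± 1.06 (SD, n = 3 each). The order of the transcripts was the same in all 3 lines although the level of the gene moved by 3.93-fold.

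**Figure D3:**
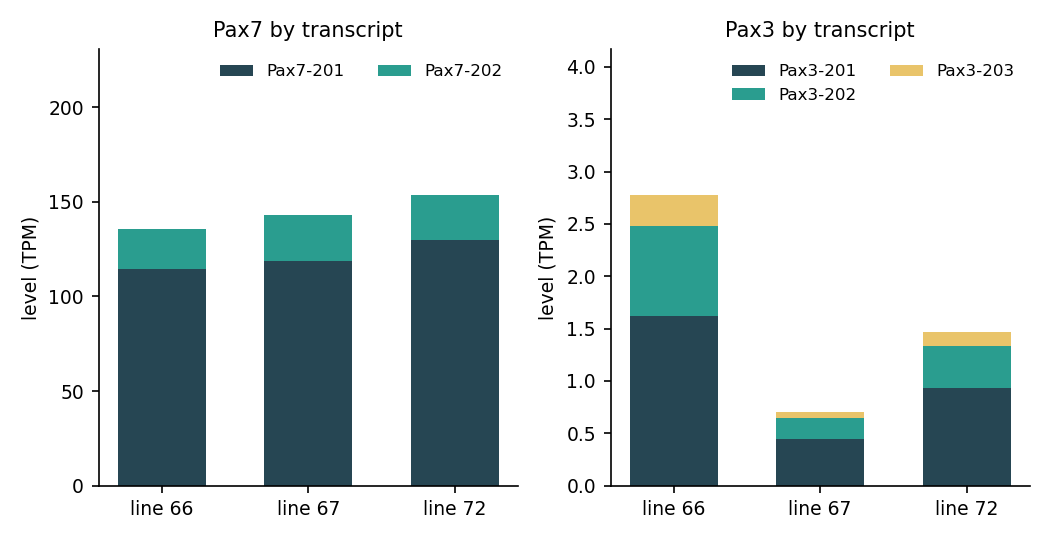
Level of each listed transcript of Pax7 (left) and Pax3 (right) in lines 66, 67 and 72 (TPM, stacked bars from 0, with separate axes). Pax7-201 makes up most of the Pax7 bar in every line, and the Pax3 bar reaches 2.78 TPM in line 66 against 0.708 TPM in line 67.

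The genes closest to Pax7 and Pax3 in level were taken as those with the smallest largest difference in log2(TPM + 1) over the 3 lines. Such nearness is one of level only and says nothing of shared regulation or function. For Pax7 these were Rab2a (0.022), Pafah1b2 (0.022) and Pip4p2 (0.032). For Pax3 they were Adm (0.19), Gm40841 (0.19) and Gm45783 (0.21).

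The other Pax genes were barely read. Pax4 had 0 counts in all lines, which allows up to 3 counts per library. Pax1, Pax2, Pax8 and Pax9 had at most 5 counts in any line, and Pax5 had between 6 and 12. Pax6, a factor of eye and pancreas development, had 53.2, 19.1 and 15.1 estimated counts in lines 66, 67 and 72, or 0.764, 0.314 and 0.115 TPM.

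Six4 (chr12:73099609-73113456, minus strand), which acts in muscle precursors, had 21.4 TPM in line 66, 23.4 TPM in line 67 and 23.9 TPM in line 72. Its mean was 22.9 ± 1.35 TPM (SD, n = 3), of which 95.4% ± 0.658 came from Six4-201. Pax7 over Six4 was 6.36-fold, 6.11-fold and 6.43-fold, so this ratio moved little between lines.

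Six2 (chr17:85684277-85688274, minus strand) is best known for maintaining nephron progenitors in the kidney and is also expressed in mesenchyme. It had 20.3 TPM in line 66, 2.15 TPM in line 67 and 10.2 TPM in line 72, with a mean of 10.9 ± 9.08 TPM (SD, n = 3). The estimated counts were 2614 (95% Poisson interval 2515 to 2716), 257 (227 to 290.4) and 1272 (1203 to 1344). Line 66 was the highest and line 67 the lowest, and 1.6% of genes averaging 1 TPM or more had this order with a fold above 2. All counts fell on Six2-202, and Six2-201 was at 0 in every line. In line 66 Six2 was close to Six4, with Six4 over Six2 at 1.05-fold, whereas Six4 was 10.9-fold higher in line 67 and 2.33-fold higher in line 72. The 6 fibroblast markers did not move as one. Their summed level of 4.33, 6.29 and 3.88 TPM in lines 66, 67 and 72 was mostly Thy1, with 3.51, 5.80 and 3.26 TPM. Col1a1, with 0.311, 0.103 and 0.193 TPM, was low but, like Six2, highest in line 66 and lowest in line 67. Pdgfra had 0.454, 0.378 and 0.387 TPM and 114, 94.3 and 67.4 estimated counts, so that its lowest line differed between these units. Dcn had 4, 1 and 3 estimated counts, and Lum and Dpt were at 0. The part of such cells in the Six2 values was not tested.

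Genes near Six2 were read next, a step chosen after its values were seen. Within 500 kb of Six2, 7 other genes had at least 10 estimated counts in a line. Six3, a forebrain and eye factor that lies 55.0 kb from Six2, had 89.9 counts in line 66, 1 count in line 67 and 13.0 counts in line 72. Six3os1, which is antisense to Six3 and overlaps it, had 26.7, 3.15 and 2.23 counts, and the use of strand in the counting is not stated. The noncoding genes AC166821.1 and Gm29418 had 22, 2 and 18 counts and 36, 2 and 8 counts. These 4 genes are low, and Six3os1 and Gm29418 reached 10 counts in line 66 alone, so that the choice of genes fixed their highest line. AC166821.1 did not separate lines 66 and 72, whose Poisson intervals were 13.8 to 33.3 and 10.7 to 28.4 counts. The other 3 genes differed less between lines. Camkmt had 1.25, 1.68 and 1.21 TPM, Srbd1 had 13.8, 14.0 and 15.3 TPM, and Prkce, beyond Srbd1, had 1.52, 1.68 and 1.44 TPM in lines 66, 67 and 72. For 411 genes of chromosome 17 that averaged 10 TPM or more, the median log2 difference of a line from the other lines lay between -0.0083 and 0.016.

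**Figure D4:**
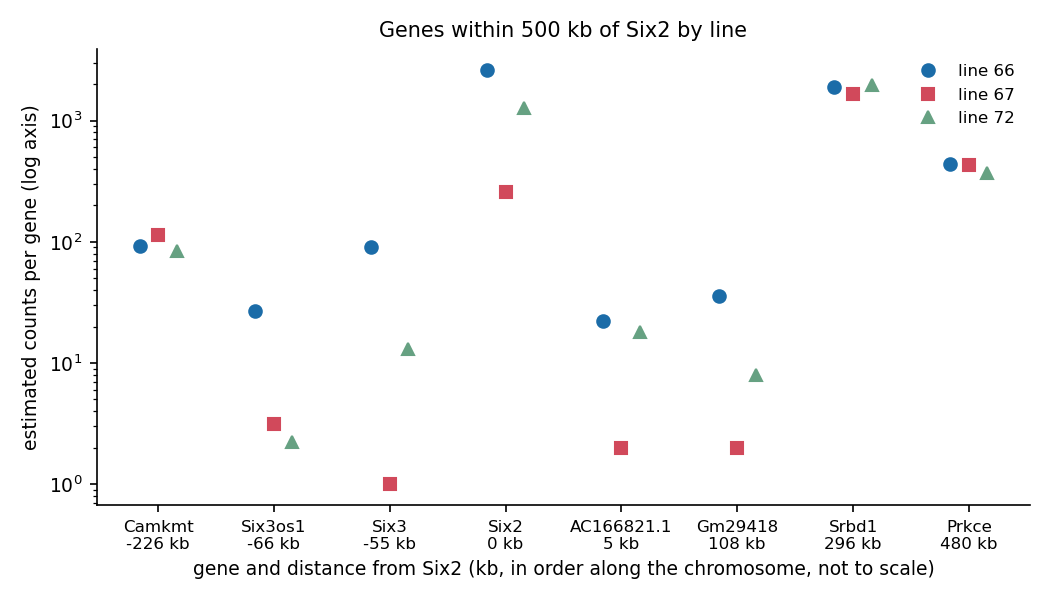
Estimated counts (log axis) in lines 66, 67 and 72 for Six2 and the 7 genes within 500 kb of it that reached 10 counts in a line, placed in order along the chromosome. Six2 runs from 257 to 2614 counts, and Camkmt, Srbd1 and Prkce lie at similar counts in all lines. Six3os1 and Gm29418 reached 10 counts in line 66 alone, so that their highest line follows from this choice.

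The promoter window of Six2, the gene that varied most of the 9, is shown, from 250 bases before to 50 bases after the start site in RefSeq (GRCm38.p6, chr17:85688205-85688504, minus strand). It holds 37 CpG, more than 94.4% of 32851 such windows, whose median was 7. Neither the MEF3 letters TCAGGTT on either strand, which 4.07% of the windows hold, nor TATAAA, held by 13.6%, occur in it.
Six2 promoter: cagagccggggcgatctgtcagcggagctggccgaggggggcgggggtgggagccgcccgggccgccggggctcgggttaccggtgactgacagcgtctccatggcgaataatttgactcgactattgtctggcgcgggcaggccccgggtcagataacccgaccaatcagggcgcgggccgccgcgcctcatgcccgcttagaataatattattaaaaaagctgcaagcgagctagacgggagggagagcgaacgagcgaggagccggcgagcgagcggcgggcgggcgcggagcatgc

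Six5 (chr7:19094594-19098549, plus strand) lies beside Dmpk, the kinase gene whose repeat expansion causes myotonic dystrophy in humans. Six5 had 0.907 TPM in line 66, 1.08 TPM in line 67 and 1.09 TPM in line 72. Its estimated counts of 164, 181 and 189 had overlapping Poisson intervals (139.9 to 191, 156 to 209 and 163 to 218), so that a difference between lines was not detectable at this depth. Dmpk, whose listed end is 0.773 kb from the start of Six5, had 699, 774 and 604 TPM in the same lines. The closeness of these genes was thus not matched by their levels. Six6 had 0 counts in all lines.

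All 4 Eya genes were read in all lines, and their summed level was 92.7, 107 and 102 TPM in lines 66, 67 and 72. Eya3 made up 50.1% ± 0.811 of this sum, Eya4 33.6% ± 6.20, Eya1 14.6% ± 4.59 and Eya2 1.83% ± 1.07 (SD, n = 3 each). The sum differed less between lines than Eya4, Eya1 and Eya2 did, but more than Eya3, its largest part, which differed by 1.12-fold. Whether the Eya genes offset one another was not tested.

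Eya3 (chr4:132638987-132724765, plus strand), which is expressed in many tissues, had 47.2 TPM in line 66, 53.0 TPM in line 67 and 51.1 TPM in line 72. Transcripts of protein-coding type carried 49.3% ± 0.769 of this level (SD, n = 3), or 23.2, 25.8 and 25.6 TPM, but 67.1% ± 2.2 of the estimated counts, since several of the other transcripts are short. The remainder was assigned to listed processed transcripts without a coding region. Of these, Eya3-212 had 10.7, 11.9 and 12.4 TPM and Eya3-206 had 9.01, 11.6 and 7.69 TPM, 2 transcripts named after their values were seen. With the coding transcripts alone, Eya3 would fall below Eya4, which had 24.3, 40.6 and 36.4 TPM on such transcripts in lines 66, 67 and 72.

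Eya4 (chr10:23102963-23350786, minus strand) had 24.6 TPM in line 66, 41.1 TPM in line 67 and 36.7 TPM in line 72, with 98.8% ± 0.181 of its level on coding transcripts. Line 66 was the lowest, and 19.7% of genes averaging 1 TPM or more exceeded 1.5-fold between lines. Genes of chromosome 10 shifted the opposite way, with a median log2 difference of 0.28 in line 66 against the other lines (427 genes averaging 10 TPM or more), where Eya4 itself differed by -0.64. Of 4 genes within 500 kb of Eya4 with at least 10 counts in a line, Rps12, Slc18b1 and Slc2a12 were highest in line 66 and Tbpl1 in line 72, so that none shared the low value of Eya4 in line 66.

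Eya1 (chr1:14168954-14310235, minus strand), which is needed together with Eya2 for the formation of limb muscle, had 18.1 TPM in line 66, 11.3 TPM in line 67 and 13.8 TPM in line 72. Eya1 was thus highest where Eya4 was lowest, and Eya4 over Eya1 was 1.36-fold, 3.62-fold and 2.65-fold in lines 66, 67 and 72. In every line Eya4 stayed above Eya1. The level of Eya1 was divided between 8 coding transcripts, none of which carried more than 24.1% of it on average.

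Eya2 (chr2:165595032-165771727, plus strand) had 2.72 TPM in line 66, 1.90 TPM in line 67 and 0.809 TPM in line 72. Its estimated counts were 261 (95% Poisson interval 230.3 to 295), 148 (125 to 174) and 99 (80.5 to 121). Line 66 was highest and line 72 lowest, which is not the order of Six2 and Pax3. The difference was 1.75 between lines 66 and 72 and 1.23 between lines 67 and 72 on the log2 scale, and 2.08% and 1.25% of genes exceeded 2-fold in these directions. Part of the fold came from a short processed transcript, Eya2-205, named after its values were seen, with 22.4, 15.6 and 0 estimated counts but 0.832, 0.637 and 0 TPM. On the coding transcripts alone the fold of the highest over the lowest line was 2.24, and on counts scaled to the library total it was 2.53. Between lines 67 and 72 the call was lost in both. Eya2 had 1.08 and 0.793 TPM there on coding transcripts, and 2.21 and 1.41 CPM, each pair under 2-fold.

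Lists of partners and targets of these factors, drawn from general knowledge, were then read as levels. Of 33 distinct genes in the 4 lists, 27 had at least 10 TPM in every line, as did 31.5% of all detected genes. The median level was 46.6 TPM for the Pax partners, 84.9 TPM for the Pax targets, 14.9 TPM for the Six- and Eya-family partners and 105 TPM for the Six-family targets, beside 0.861 TPM over all detected genes.

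All 10 partners of Pax7 and Pax3 had at least 10 TPM in every line. None exceeded 2-fold between lines, which, at a background of 2.47% of genes averaging 10 TPM or more, says nothing particular to the list. Nedd4, a ubiquitin ligase that acts on Pax7, was the highest with 825 ± 48.9 TPM. Carm1, an arginine methyltransferase of Pax7, had 77.1 ± 4.12 TPM, and Paxbp1, which links Pax7 to a histone methyltransferase complex, had 50.8 ± 2.25 TPM. The complex members Ash2l, Wdr5, Rbbp5 and Kmt2d had 76.9 ± 1.40, 48.4 ± 2.88, 27.4 ± 1.40 and 20.3 ± 0.770 TPM (SD, n = 3 for each gene). Hira, Taf1 and Daxx had between 16.1 and 44.9 TPM on average.

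Among 9 Pax targets, 8 had at least 10 TPM in every line. None exceeded 2-fold, beside 7.19% of genes averaging 1 TPM or more. Myod1, the myogenic bHLH factor, had 791, 702 and 579 TPM in lines 66, 67 and 72, and its relative Myf5 had 97.2, 118 and 113 TPM. Fgfr4, a growth factor receptor gene bound by Pax3, had 22.8, 28.5 and 42.6 TPM, and Itm2a had 45.5, 63.9 and 84.4 TPM. Both were highest in line 72, whereas Myod1 was highest in line 66, and the targets had no order in common. Met, the receptor used by migrating muscle precursors, had 75.7, 68.4 and 111 TPM. Lbx1, a homeobox gene of the same precursors, had 16.5 ± 2.18 TPM (SD, n = 3). Id3 had 484, 364 and 337 TPM in lines 66, 67 and 72, Plagl1 had 325, 366 and 196 TPM, and Dmrt2 was lowest with 4.45, 4.95 and 6.16 TPM.

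The partners of Six- and Eya-family proteins differed widely in level. Of 7 that averaged 1 TPM or more, none exceeded 2-fold between lines, beside 7.19% of all such genes. The corepressor genes Tle3, Ski, Skil, Tle1 and Tle2 had at least 10 TPM in every line, with means of 76.4, 59.7, 48.2, 30.9 and 14.9 TPM. The Dach genes, whose products are corepressors that complex with Six- and Eya-family proteins, were low. Dach1 had 1.29, 0.676 and 1.11 TPM in lines 66, 67 and 72, and Dach2 had 8, 0 and 7 counts. Tle4 had 2.38 TPM and Sobp 0.378 TPM on average.

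Of 7 Six-family targets, 6 had at least 10 TPM in every line, and 1, the creatine kinase gene Ckm, exceeded 2-fold, beside 7.19% of genes averaging 1 TPM or more. Aldoa, a glycolytic enzyme with a Six-responsive muscle promoter, had 1228, 1418 and 1415 TPM in lines 66, 67 and 72. Myog, the differentiation factor, had 168, 222 and 310 TPM, and Ckm had 4.52, 6.88 and 9.30 TPM. Both were lowest in line 66, as was the summed level of the 6 genes of differentiated muscle, which include them. Its part in these values was not tested. Ezr had 121, 116 and 77.6 TPM, the opposite order, and Slc12a2 had 14.9 ± 2.57 TPM (SD, n = 3).

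**Figure D5:**
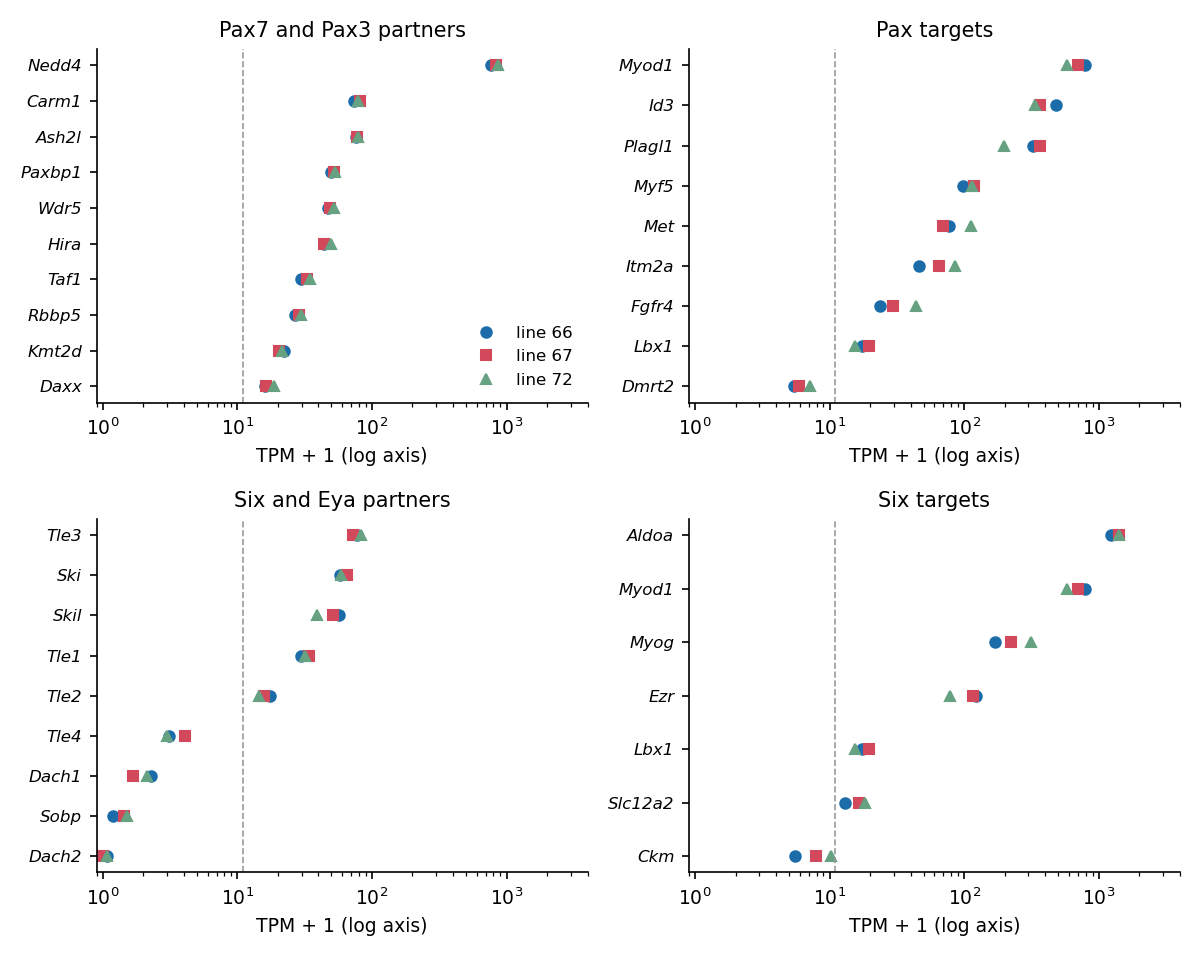
Levels (TPM + 1, log axis) of the partner and target genes of the Pax factors (top) and of the Six- and Eya-family factors (bottom) in lines 66, 67 and 72. The dashed line marks 10 TPM, and 27 of the 33 distinct genes lie to its right in every line.

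The Myog promoter is shown because it holds the element that Six-family proteins bind, in capitals (TCAGGTT on the plus strand, from base -84 relative to the start site). The window runs from 250 bases before to 50 bases after the start site in RefSeq (GRCm38.p6, chr1:134289754-134290053, plus strand). The same letters occur once in a Six4 window, on the opposite strand, and in none of the windows of Pax7, Six2, Six5, Eya3 and Eya4, the other genes of the 9 with a window. A match of these letters is a description of the sequence and not a measure of binding.
Myog promoter: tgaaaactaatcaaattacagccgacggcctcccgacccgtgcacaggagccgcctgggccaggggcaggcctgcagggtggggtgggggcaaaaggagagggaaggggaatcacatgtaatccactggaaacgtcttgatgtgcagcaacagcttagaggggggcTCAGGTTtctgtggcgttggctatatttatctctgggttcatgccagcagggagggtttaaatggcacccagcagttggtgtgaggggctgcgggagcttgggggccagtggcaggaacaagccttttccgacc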

How the data were processed

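RNA-seq libraries (stranded, poly-A-enriched) of 3 edited Dmdmdx; Pax7-nGFP myoblast lines were used. Tables of 121798 transcripts were used, in which the authors deposited estimated counts, often with decimals, and TPM values. Per the submitters' processing notes, bcl2fastq 2.20, fastp 0.20, kallisto 0.46.1 and the build GRCm39 were used, and the annotation is not given in the sources used here. Transcript identifiers were matched to GENCODE M21 (GRCm38), which gave names and coordinates. The 1112 unmatched transcripts, with 0.493% to 0.535% of the estimated counts, were left out. Both were summed over the transcripts of a gene, and levels on a log scale were log2(TPM + 1). The effective length of a transcript was estimated separately in each library, so that a short transcript can change its TPM more than its count.

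The 9 genes and the gene lists were chosen with earlier results of these data known. Genes named are the 9, other genes of the families, the listed genes, and the 3 closest to Pax7 and to Pax3 in level, and others are named by position or as stated. A further gene of these families is not reported here. Differences between lines were counted above 2-fold at a mean of at least 1 TPM, without a p-value, since each line has 1 library. Whether the lines came from separate animals is not given, and Poisson intervals and limits of 3 counts cover counting error only. Estimated counts, rounded to whole numbers, were given to edgeR for the coefficient of variation, with an intercept as its only term. Alternatives were CPM, a pseudocount of 0.1, shares of estimated counts, filters at 10 TPM or none, a fold of 1.5, edgeR's TMM and DESeq2's size factors, and leaving out each line. Coding transcripts alone were added after the data were seen. In a simulation with 12528 genes, 97% of the 200 changed by 4-fold in line 66 were found over 2-fold from both other lines in the simulated direction, beside 41 unchanged genes. This comparison is stricter than the highest over the lowest line, which the text uses. Every simulated gene had a biological coefficient of variation of 0.2, below the 0.679, 0.499 and 0.386 fitted for Six2, Pax3 and Eya2. The simulated rates therefore do not carry over to these genes. edgeR 4.0.16 and DESeq2 1.42.0 ran in R 4.3.3. Other steps ran in Python 3.11.15 with pandas 2.3.3, numpy 2.4.6 and scipy 1.17.1, and plots were drawn with matplotlib 3.10.9.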

Additional observations from a re-analysis of the deposited data

How the results depend on the processing

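CPM, which does not correct for length, raised the median of the 9 levels on the log2 scale from 3.93 to 4.79 and the mean log2 ratio of Pax7 to Pax3 from 6.66 to 7.70, and left 2 of 8 neighbours in the order apart, against 4 in TPM. The order also turned, with Eya3 below Six4 in every line and below Eya4 in lines 67 and 72. As shares of estimated counts, Pax7-201 carried 94.9%, Pax7-202 5.06%, Pax3-201 55.6% and Pax3-202 35.3%. Of the 9 genes, 3 exceeded 2-fold between lines. The number was 1 (Six2) at a mean of at least 10 TPM, which leaves Pax3 and Eya2 untested, and 5 at a threshold of 1.5-fold, with Eya1 and Eya4 added. It stayed at 3 with TMM, with DESeq2's size factors, with no filter and with coding transcripts alone. Leaving out each line in turn gave between 1 and 3, and the lowest number, Eya2 alone, was without line 67, when Six2 and Pax3 fell under 2-fold, while without line 72 Eya2 did. Genes above the common coefficient of variation of 0.198 numbered 5. With the fit limited to a mean of at least 10 TPM, which Pax3, Eya2 and Six5 do not reach, the common value was 0.150 and the number 3, namely Six2, Eya1 and, newly above it, Eya4. Leaving out lines kept the log2 ratio of Pax7 to Pax3 between 6.16 and 7.18. Of 45 values for single genes, 35 changed by less than 1 SD over lines and 10 by more, 7 of them with CPM and 3 with the pseudocount. No paired analysis was possible because all libraries belong to 1 group.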
